A study of Homo sapiens with 6 samples.

Results

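The genes described here are plasminogen activators and the proteins that inhibit or anchor them at the cell surface: *PLAU*, *PLAT*, *PLAUR*, *ANXA2*, *SERPINE2* and *SERPINB2*. They were chosen by name, and all 6 were found among the 61228 gene symbols of the count table. Their levels were measured by RNA-seq in HBE cells (HBECs), which are human bronchial epithelial cells kept as an immortalized line and labelled WT. All 6 libraries received cockroach extract (CRE), an allergen mixture. Of these, 3 were treated with CRE alone (the CRE group) and 3 with CRE and VAF347, a small-molecule agonist of the aryl hydrocarbon receptor (AhR), at 20 μM (the CRE + VAF347 group), with exposure for 24 h. No library without CRE was analysed, so the effect of the extract itself was not measured. The labels do not say whether replicates came from separate cultures, so p-values measure the spread between these libraries, which may be technical. RNA was bulk, and fewer cells of a type cannot be told apart from less RNA per cell. The question was whether AhR activation in CRE-treated cells changed the transcripts of the plasminogen activation system.

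Plasmin is a broad protease that dissolves fibrin and breaks down extracellular matrix. It is made from plasminogen by the urokinase-type activator (uPA, gene *PLAU*), which works mostly on cell surfaces bound to its receptor uPAR (*PLAUR*), and by the tissue-type activator (tPA, *PLAT*), which is best known for its action on fibrin. Annexin A2 (*ANXA2*), with its partner S100A10, binds plasminogen and tPA at the cell surface. Serpins trap the activators in irreversible complexes: *SERPINE2* encodes protease nexin-1, which also traps thrombin, and *SERPINB2* encodes plasminogen activator inhibitor 2. In airway epithelium this system takes part in fibrin removal, wound repair and matrix turnover.

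AhR with its partner ARNT binds DNA at sites with the core letters GCGTG, so windows from 250 bases before to 50 bases after annotated start sites were searched for this core on both strands. RefSeq windows on GRCh38.p14 were available for *SERPINE2*, *SERPINB2*, *PLAU*, *PLAUR* and *ANXA2*. No window for *PLAT* was at hand, so *PLAT* was not searched. Of all 35116 windows of that length, 36.5% held the core. It occurred once in 1 window each of *PLAU*, *PLAUR*, *ANXA2* and *SERPINE2*, and not in the *SERPINB2* window nor in the second windows of *PLAU* and *SERPINE2*. The 29 bases around each core are shown on the strand of the gene, with the core in capitals (CACGC is the core read on the opposite strand), because the treatment acts through AhR. A match is a description of letters and not of binding.
*PLAU*, chr10:73911007-73911035, plus strand: gcgttgcggaagCACGCggggtccgggtc
*PLAUR*, chr19:43670239-43670267, minus strand: gggggaggcgccCACGCatctggggctga
*ANXA2*, chr15:60398155-60398183, minus strand: ggggccgctcccGCGTGgcgcggctcggg
*SERPINE2*, chr2:224038756-224038784, minus strand: gcaccggggccgGCGTGgctcctgcccgg
The first base of the core lay at position -113 of *PLAU*, -86 of *PLAUR*, -185 of *ANXA2* and -132 of *SERPINE2*, counted from the annotated start site. In GENCODE v44, which also annotates earlier starts, the *PLAUR* and *SERPINE2* cores fall in an exon of the gene itself, the *ANXA2* core in an intron, and the *PLAU* core in an intron of *PLAU* and an exon of the antisense gene *C10orf55*. None of these 4 genes passed the test described below, and they cannot be set against *PLAT*, which was not searched for the core.

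The libraries held 8873160 to 10750283 counts. Library-scaled counts (CPM), normalized by TMM, were used to compare a gene between groups, and transcript abundances per library (TPM), which account for transcript length, to compare genes with each other. The treatment was visible in AhR targets: *CYP1A1*, a cytochrome P450 enzyme, had 5 to 8 counts with CRE and 412 to 460 with CRE + VAF347. Of the epithelial markers, *EPCAM*, *CDH1*, *KRT8*, *KRT18* and *KRT19* had mean TPM of 266 to 1217 over the 6 libraries, and the basal keratins *KRT5* and *KRT17* had 8.69 and 149. *KRT14* and *TP63*, also markers of basal cells, had no more than 2 counts in any library, and the secretory markers *SCGB1A1* and *MUC5AC* had 0. *FOXJ1*, also a marker of differentiated airway epithelium, had 14 to 21 counts with CRE and 7 to 17 with CRE + VAF347. CRE replicate 3 stood apart from the other CRE libraries, with a chi-square averaging 9.32 and 9.04 over genes against them, compared with 2.47 between CRE replicates 1 and 2. Against the CRE + VAF347 libraries, CRE replicates 1 and 2 had 5.52 to 8.46 and CRE replicate 3 had 13.5 to 15.2. By this measure CRE replicates 1 and 2 were nearer to every CRE + VAF347 library than to CRE replicate 3. Of the 15373 genes tested, 2.21% were called, for which the adjusted p had to be under 0.05 and the log2 fold change past 0.5 in size, and 1.71% were called lower.

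Of the 6 genes, 5 were tested and 1 was called, against 2.21% of all genes tested. It was *PLAT*, which fell by 0.51 on the log2 scale, and 1.71% of all genes tested were called lower. In the other direction, 0 were called, against 0.501% of all genes tested. *PLAU*, *PLAUR*, *ANXA2* and *SERPINE2* were tested and not called, and *SERPINB2* had no count in any library. At any fold change, 1 of the 5 tested passed the adjusted p, again *PLAT*, against 5.42% of all genes tested. Without CRE replicate 3, *PLAU* (0.21, adjusted p = 0.0107) and *ANXA2* (-0.19, adjusted p = 0.0317) also passed the adjusted p in edgeR, both short of the fold threshold, as 8.26% of the genes tested did at any fold change without that library. *ANXA2* passed it too without a filter on low counts (adjusted p = 0.0428). The median log2 fold change of the 5 genes tested was 0.14, with 3 positive and 2 negative values, and that of all genes tested was 0.0096.

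**Figure D1:**
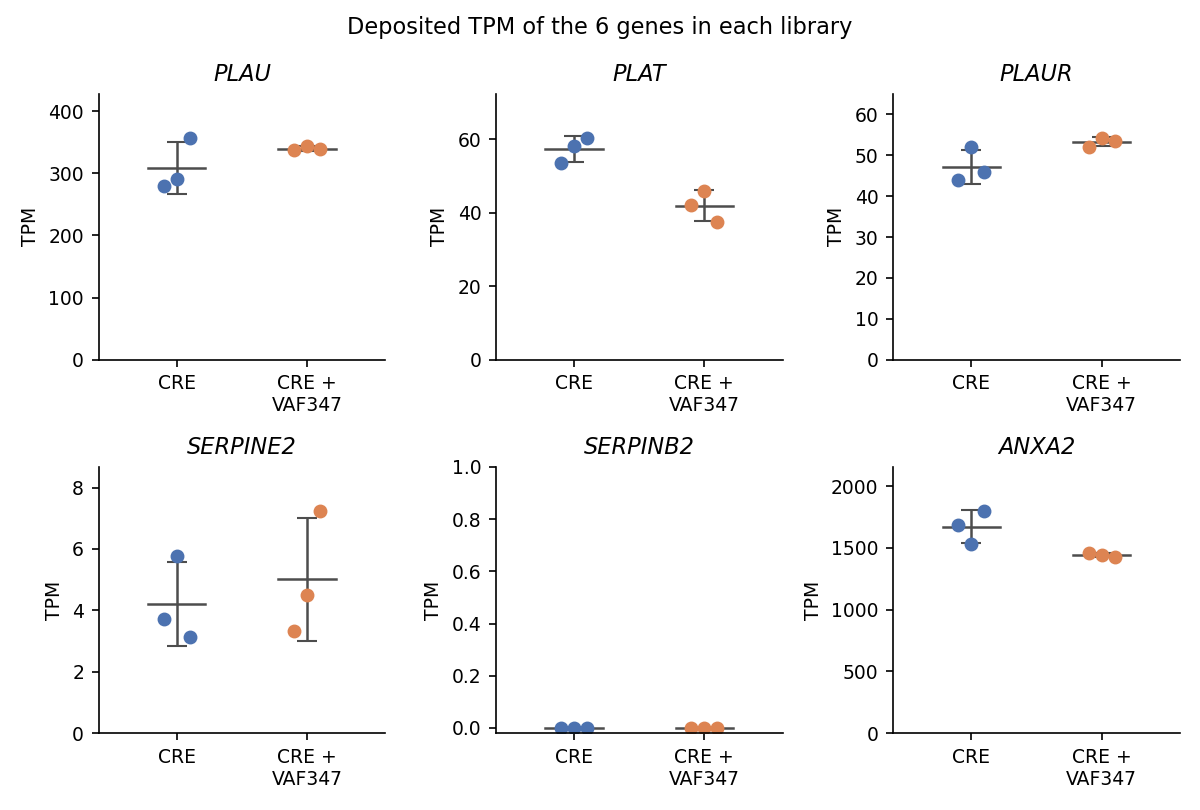
Deposited TPM of each of the 6 genes (vertical axes, linear and from 0) in the 3 CRE libraries (blue) and the 3 CRE + VAF347 libraries (orange), with the mean (horizontal line) and SD (bars). *PLAT* lies at 53.6 to 60.4 TPM with CRE and 37.6 to 45.9 with CRE + VAF347, while the *PLAU* and *SERPINE2* groups overlap and *SERPINB2* is at 0 throughout.

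*PLAT*, the tissue-type activator, spans bases 42174718 to 42207709 of chromosome 8 (GRCh38) on the minus strand, where no other gene is annotated. It had 96.9, 105 and 101 CPM in CRE replicates 1 to 3 and 75.1, 69.3 and 68.7 CPM in CRE + VAF347 replicates 1 to 3. The lowest CRE value was above the highest CRE + VAF347 value, a separation in the lower direction that 14.8% of all genes tested showed. The CRE mean was 101 ± 4.14 CPM (SD, n = 3), and the CRE + VAF347 mean, 71.0 ± 3.50 CPM (SD, n = 3), was 1.42-fold lower. The log2 fold change was -0.51 (standard error 0.06, 95% interval -0.65 to -0.37, adjusted p = 0.00112, quasi-likelihood test of edgeR), and its size ranked 1059 among the genes tested. The interval spans the fold threshold of 0.5. In TPM the means were 57.4 ± 3.48 (SD, n = 3) in the CRE group and 41.9 ± 4.20 (SD, n = 3) in the CRE + VAF347 group.

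The direction of *PLAT* held in every alternative tried, and its call did not. Without CRE replicate 2, CRE + VAF347 replicate 2 or CRE + VAF347 replicate 3, its log2 fold change was -0.48, -0.50 and -0.49, just under the threshold, with adjusted p of 0.00827, 0.0139 and 0.0141 from edgeR. On log2(TPM + 1) limma gave -0.45 with an adjusted p of 0.138. With offsets for transcript length, recovered from deposited counts and TPM, edgeR gave -0.42 with an adjusted p of 0.0611. The effective length of *PLAT* relative to its own mean was 0.853 in CRE + VAF347 replicate 2 and 1.00 to 1.07 in the other 5 libraries. TPM divides by this length, and that library had 69.3 CPM but the highest *PLAT* TPM of its group, 45.9. How much of the limma result comes from the length in that library was not tested. The transcripts of *PLAT* hold 53.6% GC, and the 1091 genes of similar GC content had a median of -0.03. With a GC offset for each library the *PLAT* value was -0.47 (adjusted p = 0.00192).

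**Figure D2:**
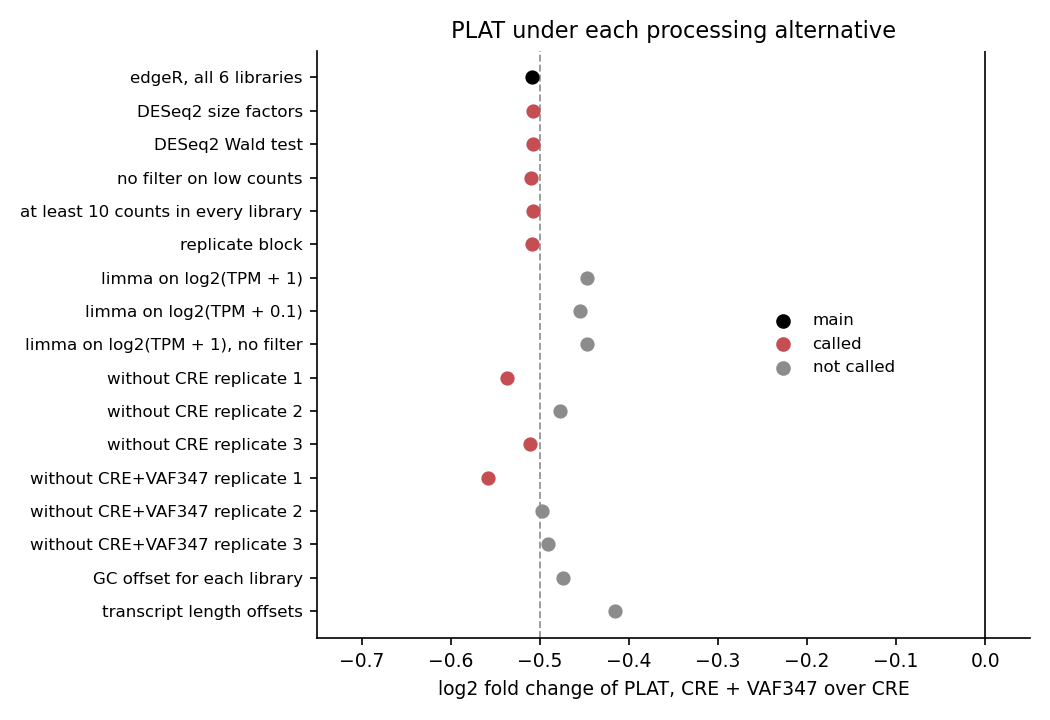
Log2 fold change of *PLAT* (horizontal axis, CRE + VAF347 over CRE) under edgeR with all 6 libraries (black) and each alternative (red where called, grey where not), with the fold threshold as a dashed line. All values lie between -0.56 and -0.42, close to the threshold on both sides.

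Some markers of other cell types were also lower with CRE + VAF347, and 0 of those tested were called higher. *CDH5*, an endothelial cadherin, was called lower (-0.84 on the log2 scale, adjusted p = 0.00119, edgeR). The other endothelial marker, *PECAM1*, had no more than 3 counts in any library. The summed TPM of the 2 endothelial markers was 6.80 to 7.40 with CRE and 3.80 to 4.48 with CRE + VAF347. The 6 mesenchymal markers summed to 25.7 to 28.5 TPM with CRE and 18.0 to 23.9 with CRE + VAF347, and 1 of them, the intermediate filament gene *VIM*, was called lower (-1.32 on the log2 scale, adjusted p = 0.00949, edgeR). *COL1A1*, a collagen gene with most of that sum, had -0.10 (adjusted p = 0.572). The cadherin gene *CDH2* had 10 to 15 counts with CRE and 16 to 29 with CRE + VAF347 and was not called (0.97, adjusted p = 0.123, edgeR). Its groups did not overlap, as for 27.3% of all genes tested on CPM in either direction. *COL1A2*, a collagen gene too low to be tested, had 8 to 11 counts with CRE and 2 to 3 with CRE + VAF347, also with no overlap. The 2 leukocyte markers summed to 2.88 to 4.10 TPM with CRE and 2.46 to 3.17 with CRE + VAF347, and overlapped. Of 7 epithelial markers tested, 0 were called, and *KRT17* (-0.27, adjusted p = 0.0240) and *KRT19* (-0.38, adjusted p = 0.0265) passed the adjusted p in the lower direction. The part of these markers in the *PLAT* result was not tested.

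*PLAU*, the urokinase gene, spans bases 73909177 to 73917496 of chromosome 10 on the plus strand and overlaps the antisense lncRNA gene *C10orf55*. It had 426, 442 and 474 CPM in the CRE libraries and 499, 513 and 495 CPM in the CRE + VAF347 libraries. On CPM the groups did not overlap, with CRE + VAF347 higher. Of all genes tested, 27.3% did not overlap when both directions are counted, and 14.8% did so in the lower direction. In TPM, by contrast, CRE replicate 3, at 357, lay above all 3 CRE + VAF347 libraries at 337 to 344. The log2 fold change of *PLAU* was 0.17 (standard error 0.06, 95% interval 0.03 to 0.30), with an unadjusted p of 0.0188 and an adjusted p of 0.146 from edgeR. *C10orf55* held 49 to 70 counts per library against 4119 to 5070 for *PLAU*, and summing both left the log2 fold change at 0.17. Whether reads were counted by strand is not given in the sources used here.

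*PLAUR*, the urokinase receptor, lies on chromosome 19 from 43646095 to 43670547. It had 37.9, 43.7 and 35.1 CPM with CRE and 42.1, 44.6 and 41.8 CPM with CRE + VAF347, and the groups overlapped. In TPM it had 43.96, 51.9 and 45.8 with CRE and 52.1, 54.2 and 53.5 with CRE + VAF347. These groups did not overlap, as for 6.3% of all genes tested in the higher direction. TPM divides by the effective length, which for *PLAUR* also differed between the groups. Relative to its own mean it was 1.00 to 1.05 with CRE and 0.960 to 0.992 with CRE + VAF347. The part of this length in the TPM separation was not tested. The log2 fold change of *PLAUR* was 0.14, with a 95% interval of -0.05 to 0.33 (adjusted p = 0.399, edgeR). The interval lies inside the fold threshold. Leaving out 1 library gave *PLAUR* values from 0.07 (without CRE replicate 3) to 0.23 (without CRE replicate 2). Between ligand and receptor, *PLAU* had 5.59 to 7.79 times the TPM of *PLAUR* with CRE and 6.33 to 6.47 times with CRE + VAF347, a mean log2 difference of -0.03 between groups (exact permutation test, two-sided p = 0.8, adjusted p = 0.8 over 3 ratios). That difference had either sign when 1 library was left out, from -0.14 without CRE replicate 2 to 0.10 without CRE replicate 3.

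Between the 2 activators the ratio was lower with CRE + VAF347 in every library. *PLAT* had 0.169 to 0.200 times the TPM of *PLAU* with CRE and 0.111 to 0.134 times with CRE + VAF347. The mean log2 ratio was -2.42 ± 0.12 (SD, n = 3) in the CRE group and -3.02 ± 0.14 (SD, n = 3) in the CRE + VAF347 group. The difference was -0.60 (exact permutation test, two-sided p = 0.1, adjusted p = 0.3 over 3 ratios). The groups did not overlap, and 0.1 is the smallest p that 3 libraries against 3 allow, so this test cannot pass the threshold. On counts in place of TPM the difference was -0.68.

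*PLAT* and *PLAUR* had almost the same mean TPM over all 6 libraries, 49.6 and 50.3, and changed places between the groups. *PLAT* was above *PLAUR* in each CRE library, with 1.12 to 1.32 times its TPM, and below it in each CRE + VAF347 library, with 0.702 to 0.847 times. This pair was chosen after the values were seen and is given without a test.

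**Figure D3:**
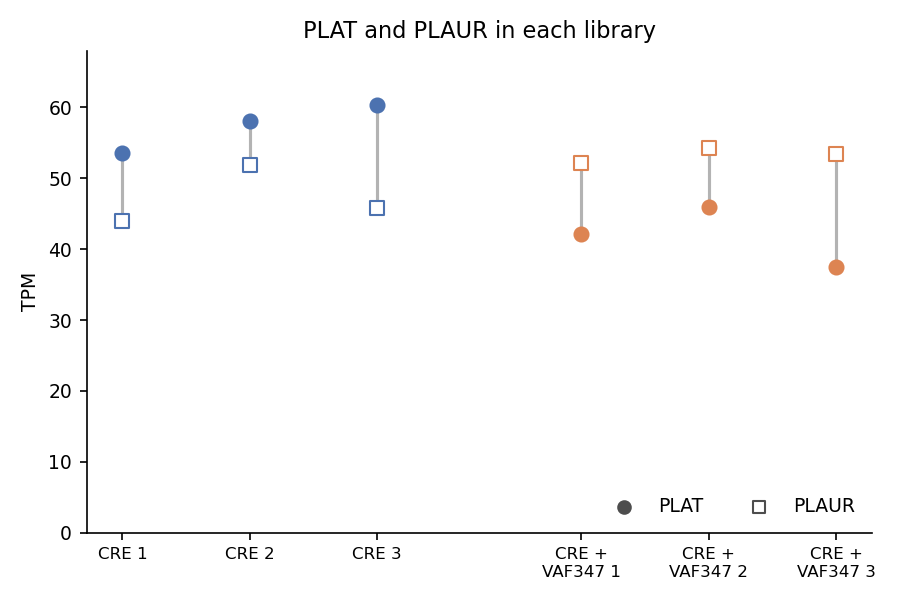
TPM (vertical axis, from 0) of *PLAT* (filled circles) and *PLAUR* (open squares) in each of the 6 libraries, joined by a grey line within a library. The circle is above the square in the 3 CRE libraries (blue) and below it in the 3 CRE + VAF347 libraries (orange).

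*ANXA2*, the plasminogen and tPA receptor on chromosome 15 from 60347134 to 60402883, was the most abundant of the 6 genes. It had 1502, 1359 and 1435 CPM with CRE and 1281, 1260 and 1228 CPM with CRE + VAF347. The groups did not overlap, as for 14.8% of all genes tested in the lower direction. Its log2 fold change was -0.19 (standard error 0.06, 95% interval -0.32 to -0.06), with an unadjusted p of 0.00961 and an adjusted p of 0.101 from edgeR. Copies of *ANXA2* can share its reads: of its processed pseudogenes *ANXA2P2* had 48 to 88 counts per library, *ANXA2P1* no more than 1 and *ANXA2P3* 0. Summing all 3 with *ANXA2* gave -0.19 (adjusted p = 0.101). *S100A10*, the partner of annexin A2, was named after its values were seen. It had 911 to 1171 TPM with CRE and 1062 to 1123 with CRE + VAF347 (log2 fold change 0.08, adjusted p = 0.692).

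*SERPINE2*, which encodes protease nexin-1, lies on chromosome 2 from 223975045 to 224039318 and was expressed at a low level. Its counts were 41, 52 and 34 in the CRE group, or 4.24, 5.10 and 3.18 CPM. In the CRE + VAF347 group they were 34, 50 and 58, or 3.82, 5.26 and 5.79 CPM. The groups overlapped widely. The fitted log2 difference was 0.26 with a standard error of 0.23 (edgeR, adjusted p = 0.559), and the 95% interval of -0.24 to 0.75 includes changes past the fold threshold, so that a change of that size could have been missed at this depth. Leaving out 1 library gave *SERPINE2* values from 0.09 (without CRE replicate 3) to 0.43 (without CRE replicate 2), with 0.12 without CRE + VAF347 replicate 3 and 0.40 without CRE + VAF347 replicate 1. The *SERPINE2* to *PLAU* ratio of TPM was 0.00882 to 0.0199 with CRE and 0.00987 to 0.0213 with CRE + VAF347 (log2 difference 0.08, exact permutation test, two-sided p = 0.8, adjusted p = 0.8 over 3 ratios). The sign of this difference depended on single libraries: it was -0.22 without CRE + VAF347 replicate 3, -0.21 without CRE replicate 3, 0.33 without CRE + VAF347 replicate 1 and 0.37 without CRE replicate 2.

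*SERPINB2*, which encodes plasminogen activator inhibitor 2, lies on chromosome 18 from 63871692 to 63903888. It had 0 counts in each of the 6 libraries. With a floor of 3 counts per library, a level of up to 0.280 to 0.337 CPM is allowed, which covers counting error only. No fold change can be given.

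By mean TPM over the 6 libraries the order was *ANXA2* (1558), *PLAU* (324), *PLAUR* (50.3), *PLAT* (49.6), *SERPINE2* (4.61) and *SERPINB2* (0). Neighbours in this order did not overlap in any library, except *PLAUR* and *PLAT*, whose ranges over all 6 libraries overlapped.

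The genes with a pattern most like *PLAT* over the 6 libraries, by Pearson's r of log2 CPM among 10856 expressed genes, were *TPM1* (r = 0.996), *ASS1* (r = 0.996) and *FGD3* (r = 0.994). *TPM1* encodes an actin-binding tropomyosin and *ASS1* an enzyme of arginine synthesis. Their log2 fold changes were -0.34, -0.84 and -0.70. These correlations describe 6 libraries that share 1 group difference.

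Other genes of the plasminogen system and of the coagulation pathways beside it were counted in 6 lists. The lists hold 61 genes reported here, of which 37 were tested. Of these 37, edgeR called 0 in either direction, DESeq2 0 and limma on log2(TPM + 1) 0, while 11 had an unadjusted p under 0.05 in edgeR, as did 20.8% of all genes tested. At any fold change, 4 passed the adjusted p, all of them lower, against 4.07% of all genes tested. The median log2 fold change over the 37 was -0.10, with 29 negative and 8 positive values, and that of all genes tested was 0.0096.

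Of the clearance receptors and surface partners of uPAR, 11 of 13 genes were tested and 0 called, with 9 negative and 2 positive values and a median of -0.09. *LRP1*, which clears activator-inhibitor complexes from the cell surface and was named after its values were seen, fell without passing the fold threshold, from 122 ± 14.6 (SD, n = 3) to 89.4 ± 3.39 (SD, n = 3) CPM (log2 fold change -0.45, adjusted p = 0.00960). Without CRE replicate 3 the *LRP1* value was -0.36, and without CRE replicate 1 it was -0.53 and *LRP1* was called. Without CRE + VAF347 replicate 3 its adjusted p was 0.0595. The *LRP1* value was -0.385 (adjusted p = 0.0243) in edgeR with the GC offset and -0.43 (adjusted p = 0.301) in limma on log2(TPM + 1). The integrins *ITGB1* and *ITGAV*, uPAR partners, had log2 fold changes of -0.07 and -0.21 and the LRP chaperone *LRPAP1* 0.06, none called.

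Among plasminogen and its surface receptors, 5 of 6 genes were tested and 0 called, with 2 negative and 3 positive values and a median of 0.05. *PLG*, plasminogen itself, had 0 counts in every library. *ENO1*, a glycolytic enzyme that binds plasminogen at the surface, had a log2 fold change of -0.21 (adjusted p = 0.131), while *KRT8* and *HMGB1* had -0.05 and 0.05.

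Of the 11 other inhibitors of plasmin or of its activators, 7 were tested and 0 called, all 7 with negative values and a median of -0.15. *TFPI2*, a Kunitz-type inhibitor of plasmin named after its values were seen, fell past the adjusted p but not the fold threshold, from 55.7 ± 3.04 (SD, n = 3) to 40.2 ± 2.92 (SD, n = 3) CPM (log2 fold change -0.47, adjusted p = 0.00551). Without CRE + VAF347 replicate 2 its value was -0.54, and *TFPI2* was called. In edgeR it was also called with the GC offset (-0.51, adjusted p = 0.00485) and with transcript length offsets (-0.53, adjusted p = 0.0497). Limma on log2(TPM + 1) gave -0.57 with an adjusted p of 0.121 and did not call it. *SERPINA5*, the protein C inhibitor, also named after its values were seen, had the most negative value of the 6 lists. Its counts were 23, 19 and 19 in the CRE group and 10, 10 and 8 in the CRE + VAF347 group (log2 fold change -1.01, standard error 0.29), which did not pass (adjusted p = 0.0739). *SPINT1*, *SPINT2* and *SERPINB6* had values of -0.15, -0.05 and -0.10.

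Of the 10 other clade B serpins, relatives of *SERPINB2*, 3 were tested and 0 called. *SERPINB1*, *SERPINB5* and *SERPINB9* had mean TPM of 46.5, 25.5 and 21.2 and log2 fold changes of -0.09, -0.18 and -0.01. Like *SERPINB2*, 6 of the 10 had 0 counts in every library, among them *SERPINB3* and *SERPINB4*.

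Of the 7 proteases that activate prourokinase or act beside it, 4 were tested and 0 called. *PRSS8*, prostasin, passed the adjusted p only (log2 fold change -0.30, adjusted p = 0.0211), which was 0.0580 to 0.0995 without CRE replicate 2 or any 1 of the CRE + VAF347 libraries. The *PRSS8* groups overlapped in TPM, and its value was -0.13 (adjusted p = 0.737) in limma on log2(TPM + 1), -0.10 (adjusted p = 0.738) with transcript length offsets and -0.21 (adjusted p = 0.0843) with the GC offset. *ST14*, matriptase, and *CTSB*, cathepsin B, had -0.11 and -0.17. Of the 14 coagulation genes, 7 were tested and 0 called. *F3*, tissue factor, which starts coagulation, passed the adjusted p only, with means of 319 ± 12.2 TPM (SD, n = 3) in the CRE group and 243 ± 25.4 TPM (SD, n = 3) in the CRE + VAF347 group (log2 fold change -0.34, adjusted p = 0.0347). Leaving out any library but CRE replicate 3 took its adjusted p to between 0.0543 and 0.130. The *F3* value was -0.36 (adjusted p = 0.107) in edgeR with transcript length offsets and -0.40 (adjusted p = 0.147) in limma on log2(TPM + 1). *ANXA5* and *F2RL1*, the protease-activated receptor 2 gene, had 0.11 and 0.06. The fibrinogen genes *FGA*, *FGB* and *FGG* had no more than 1 count in any library.

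**Figure D4:**
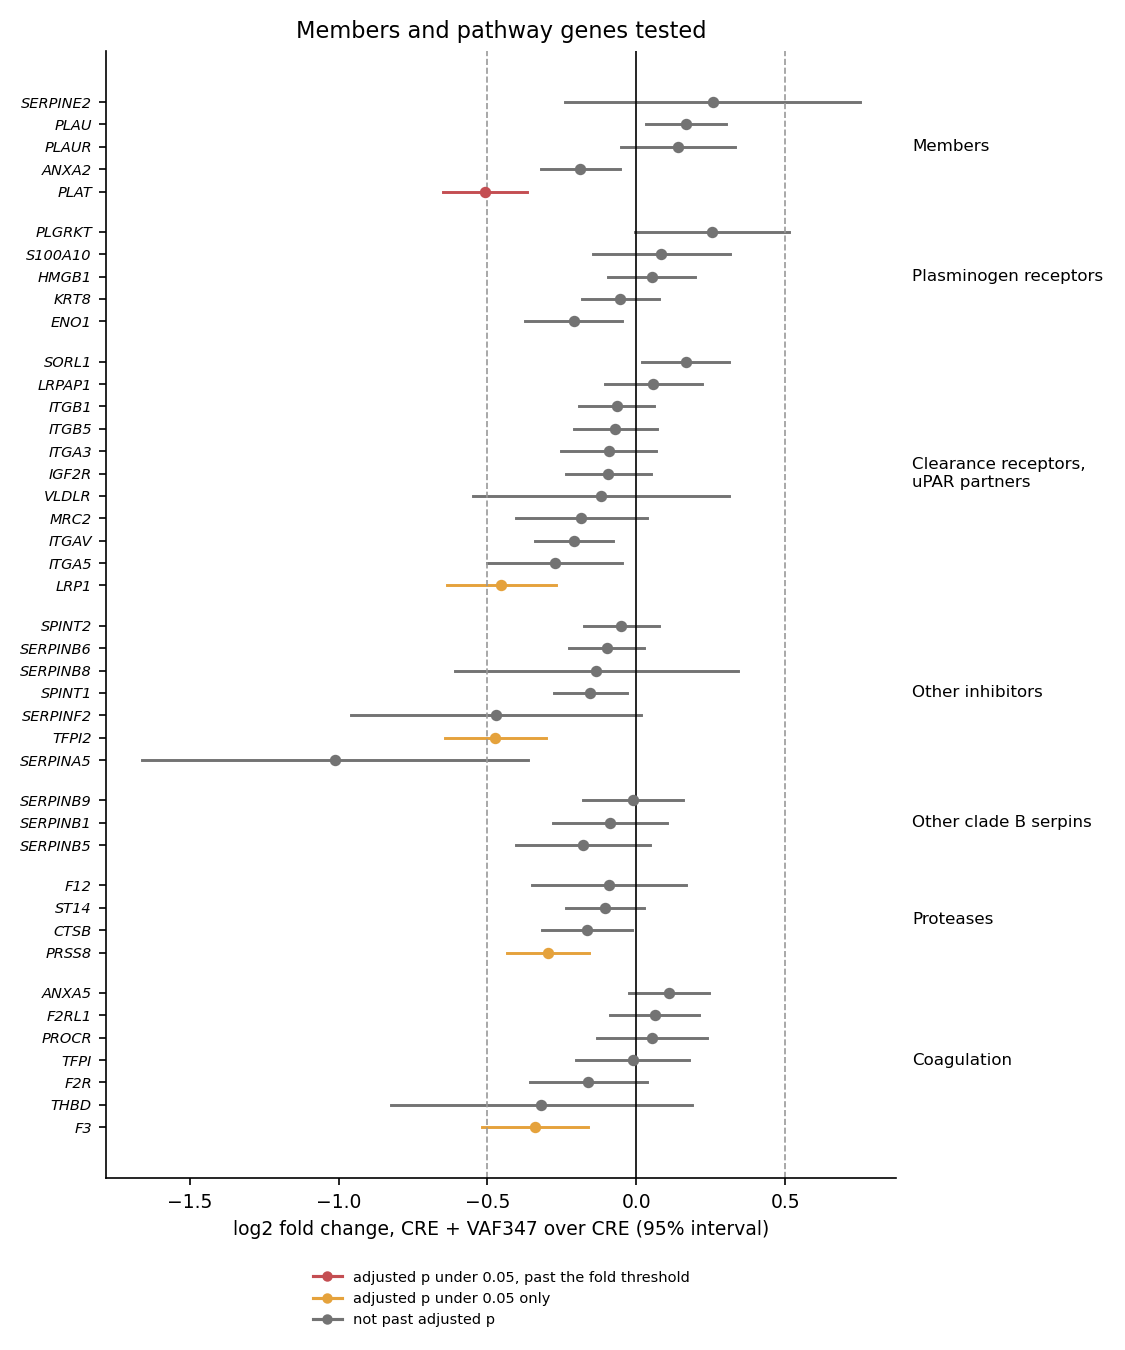
Log2 fold change (horizontal axis, CRE + VAF347 over CRE) with its 95% interval for the 5 genes and the 37 pathway genes tested, grouped by list, with dashed lines at the fold threshold. *PLAT* (red) passed both thresholds, and *LRP1*, *TFPI2*, *PRSS8* and *F3* (orange) the adjusted p only.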

How the data were processed

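RNA-seq of 6 HBEC libraries was analysed, with groups and replicates taken from the labels, which name the table columns. The authors deposited expected counts, which are fragments estimated with Salmon and summed per gene symbol and are not scaled to depth, and TPM values, which sum to 1000000 per library. The submitters' notes give hg38, and 61228 of 61228 symbols were found in GENCODE v44. The Salmon version, annotation and use of strand are not given in the sources used here. The authors' table of log2 fold changes and p-values was not used.

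Rounded counts were filtered (filterByExpr), TMM-normalized and tested by quasi-likelihood with edgeR 4.0.16 (R 4.3.3), with Benjamini-Hochberg adjustment over all genes tested. A standard error is the log2 fold change divided by the square root of F. DESeq2 1.42.0 and limma 3.58.1 served as alternatives. The fits were tested on simulated data. Single ratios were compared by exact permutation over libraries. The members and lists were chosen with earlier results of these data known. Named genes are the members, called genes of the lists and up to 3 uncalled genes per list with the highest mean TPM, and the 3 genes most like a called member. *CYP1A1* and *CYP1B1* (log2 fold change 3.14) served to check the treatment. *PLG*, *SERPINB3*, *SERPINB4*, the fibrinogen genes, *C10orf55* and the *ANXA2* pseudogenes were named after their values were seen. Some further genes of this system are not reported here. VAF347 without CRE was not analysed here.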

Additional observations from a re-analysis of the deposited data

How the results depend on the processing

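The direction of *PLAT*, *PLAU*, *PLAUR*, *ANXA2* and *SERPINE2* was the same in every alternative tried, and *PLAT* was the only one of these whose call changed, although the size of *PLAUR* and *SERPINE2* moved by over 1.5 times when 1 library was left out (0.07 to 0.23 and 0.09 to 0.43). Limma on log2(TPM + 1), on log2(TPM + 0.1) and on log2(TPM + 1) without a filter gave *PLAT* -0.45, -0.45 and -0.45, with 0 members and 0 pathway genes called and 84, 84 and 32 genes called in all (50 lower and 34 higher, 52 and 32, and 12 and 20, against 340 in edgeR, 263 lower and 77 higher). Alternatives chosen after seeing the data were a GC offset, with which *PLAT* was -0.47, and transcript length offsets, with which it was -0.42 and 218 genes were called in all. Each gave 0 members and 1 pathway gene called, *TFPI2*, against 0 pathway genes in edgeR without offsets. Without a filter on low counts 598 genes were called, at any fold change 833 with 4 pathway genes, and with an unadjusted p 749 with 1. Leaving out each library in turn gave -0.56 to -0.48 for *PLAT*, 201 (without CRE + VAF347 replicate 3) to 380 genes called, 0 to 1 members and 0 to 1 pathway genes. The cause of these changes was not tested. Replicate numbers are shared by both groups. Deviations of same-numbered libraries correlated with r of 0.07, 0.10 and 0.05 over 11085 genes, and those of libraries with different numbers with r of -0.052 to -0.015. Each library correlated best with its own number, as a hint from the data. These values are small and cannot decide whether the libraries were paired. The fit with the replicate block called 319 genes and 1 member, with *PLAT* at -0.51 (adjusted p = 0.00459). Depth limits *SERPINE2*, *SERPINB2* and *SERPINA5*.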

Other observations

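*SERPINI1*, which encodes neuroserpin, an inhibitor of tPA known from neurons, was too low to be tested. Its counts were 0, 2 and 0 in the CRE group and 6, 5 and 4 in the CRE + VAF347 group. The groups did not overlap, as for 27.3% of all genes tested on CPM in either direction, a share that leaves out genes too low to be tested. *SERPINI1* was named after its values were seen, and no fold is given for counts this low.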
